A study of Sus scrofa with 30 samples.

Results

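The main proteins of milk are the caseins, which travel as micelles, and the soluble whey proteins. The genes described here are those of alpha-S1-casein (CSN1S1), beta-casein (CSN2), kappa-casein (CSN3), beta-lactoglobulin (PAEP) and alpha-lactalbumin (LALBA), measured in teat tissue of young pigs. They were chosen by name, after the spread of CSN2 over the animals was known: every probe set whose only gene symbol in the platform annotation is 1 of these 5 was taken. Each gene has 1 such probe set, with the Entrez gene ID 445514 for CSN1S1, 404088 for CSN2, 445511 for CSN3, 396596 for PAEP and 397647 for LALBA. They are 5 of 6765 gene symbols on the array. The differences between animals are therefore given as a description, with no test.

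The 30 Affymetrix Porcine Genome arrays came from 10 peripubertal pigs of commercial dam lines, sampled at slaughter at a mean end weight of 110 kg; neither age in days nor sex is used here. The 6 groups of 5 arrays were epithelial tissue of normal teats of non-affected animals (950, 957, 1040, 1058 and 1109), epithelial tissue of normal teats of affected animals (963, 964, 1037, 1059 and 1103), epithelial tissue of inverted teats of those affected animals, and the same 3 groups for mesenchymal tissue. Affected animals had inverted teats, which do not protrude; non-affected animals had none. The breed was German Landrace in 957 and 963, Large White x German Landrace in 6 animals. Animals 1103 and 1109 were of the cross Pietrain x (Large White x German Landrace). Arrays of 1 animal share that animal, so 30 arrays stand for 10 animals. The study looked for genes that matter for whether a pig is prone to inverted teats.

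Casein genes lie in 1 cluster, and in the mammary gland they are switched on in luminal secretory cells. Prolactin acts through its receptor, JAK2 and STAT5, together with glucocorticoid and insulin. Caseins carry calcium and phosphate, kappa-casein keeps the micelle in suspension, beta-lactoglobulin is a lipocalin, and alpha-lactalbumin turns the galactosyltransferase B4GALT1 into lactose synthase. Transcripts of casein and beta-lactoglobulin appear in the gland before lactation, while full milk secretion follows birth of the young. In the RefSeq table of assembly Sscrofa11.1 the cluster runs in the order CSN1S1, CSN2, STATH, CSN1S2, PRR27, ODAM, 2 long non-coding RNA genes and CSN3. Of these 9 genes, CSN1S1, CSN2, CSN1S2 and CSN3 have a single-symbol probe set.

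Values are the deposited probe set summaries on a log2 scale, so that a difference of 1 is a doubling. Array medians lay between 5.71 and 6.04 and the 30th percentile of each array between 4.49 and 4.84, and a probe set at or near that percentile is close to the lowest part of the array. Levels of different genes were not set against one another, since probes differ in brightness. The 15 mesenchymal and 15 epithelial arrays were checked against cell type markers. The summed level of a list is the sum of the log2 values of its genes, so it is not an amount of transcript. The summed level of the 12 luminal epithelial genes was 91.1 to 102.8 in epithelial tissue of normal teats from non-affected animals, 92.0 to 105.2 in that from affected animals and 62.0 to 104.7 in that of inverted teats. In mesenchymal tissue it was 48.2 to 105.4, 51.7 to 104.8 and 54.8 to 107.1 in the same order. Several mesenchymal pieces therefore had luminal sums as high as epithelial ones. The epithelial array of the inverted teat of animal 1103 stood apart with the 62.0, and it also had 40.7 as the lowest epithelial sum of the 8 keratinocyte genes; teat differences are also given without animal 1103. Of the markers, 9 lay at 0 on at least 1 array. Fewer cells of a type and less RNA per cell cannot be told apart in such bulk samples.

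CSN2 separated the animals. In normal teats of animal 950 it was 13.90 in epithelial and 15.47 in mesenchymal tissue, and in those of animal 957 it was 14.94 and 13.83. Animal 963 had 15.06 and 14.76 in epithelial and mesenchymal tissue of its normal teat and 14.80 and 12.94 in its inverted teat. Animal 964 had 13.16 and 16.14 in its normal teat and 15.33 and 16.17 in its inverted teat. These 12 arrays are all far above the other 18, and the lowest of them, 12.94, lies more than 6 units over the highest of the rest. The other animals ranged from 4.0 to 4.92 over the 4 arrays of 1037, and from 4.51 to 4.79 in 1040. Animal 1058 had 5.33 in epithelial and 6.39 in mesenchymal tissue, and 1109 had 4.90 and 5.52. Animals 1059 and 1103 lay between 5.30 and 5.95 and between 4.63 and 5.82. The highest value of this lower set, 6.39, and its lowest, 4.0, are both mesenchymal arrays of normal teats. In normal teats of these 6 animals CSN2 was higher in mesenchymal tissue in 5. In the other, 1037, both tissues lay below their array's 30th percentile.

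CSN1S1 and CSN3 had their highest values in the same 4 animals, with a wider floor. CSN1S1 was 8.54 and 11.23 in epithelial and mesenchymal tissue of animal 950, 10.85 and 10.15 in 957, 8.95 to 10.28 in 963 and 9.68 to 12.42 in 964. The next values were 6.31 and 5.20 in mesenchymal and epithelial tissue of animal 1109 and 5.88 and 5.16 in epithelial tissue of the inverted and normal teat of 1037. The remaining 14 arrays lay at 4.39 or below, with 2 listed at 0. CSN3 was 6.85 and 9.52 in epithelial and mesenchymal tissue of animal 950, 8.95 and 8.51 in 957, 7.18 to 8.79 in 963 and 8.14 to 11.14 in 964. It was 4.60 and 5.10 in animal 1109 and 3.10 to 4.62 in 1037. In animals 1040, 1058, 1059 and 1103 it was at most 2.56, with 6 arrays listed at 0. In animals 1037 and 1109, CSN3 was therefore above all arrays of 1040, 1058, 1059 and 1103. CSN2 on the same arrays was 4.0 to 5.52, within the range of those animals or below it. Of these arrays, CSN3 passed the 30th percentile only in epithelial tissue of the normal teat of 1037 and mesenchymal tissue of 1109. Most of this order in CSN3 therefore lies within the floor.

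PAEP, beta-lactoglobulin, was highest in the same 4 animals and had intermediate values in others. It was 9.94 and 12.41 in epithelial and mesenchymal tissue of animal 950, 12.81 and 12.26 in 957, 11.50 to 12.06 in 963 and 12.01 to 13.34 in 964. Animal 1109 had 8.04 in epithelial and 8.42 in mesenchymal tissue, and animal 1037 had 7.79 and 8.43 in epithelial tissue of its normal and inverted teat. In mesenchymal tissue animal 1037 had 4.78 and 5.48. Animals 1040 and 1058 had 6.54 and 7.21 in epithelial tissue but 5.20 and 5.21 in mesenchymal tissue. Animals 1059 and 1103 were lowest in epithelial tissue, from 2.98 to 4.74, and higher in mesenchymal tissue, from 4.74 to 7.34. The inverted teat of 1103 had 7.34 in mesenchymal tissue and 2.98, the lowest of all arrays, in epithelial tissue.

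**Figure D1:**
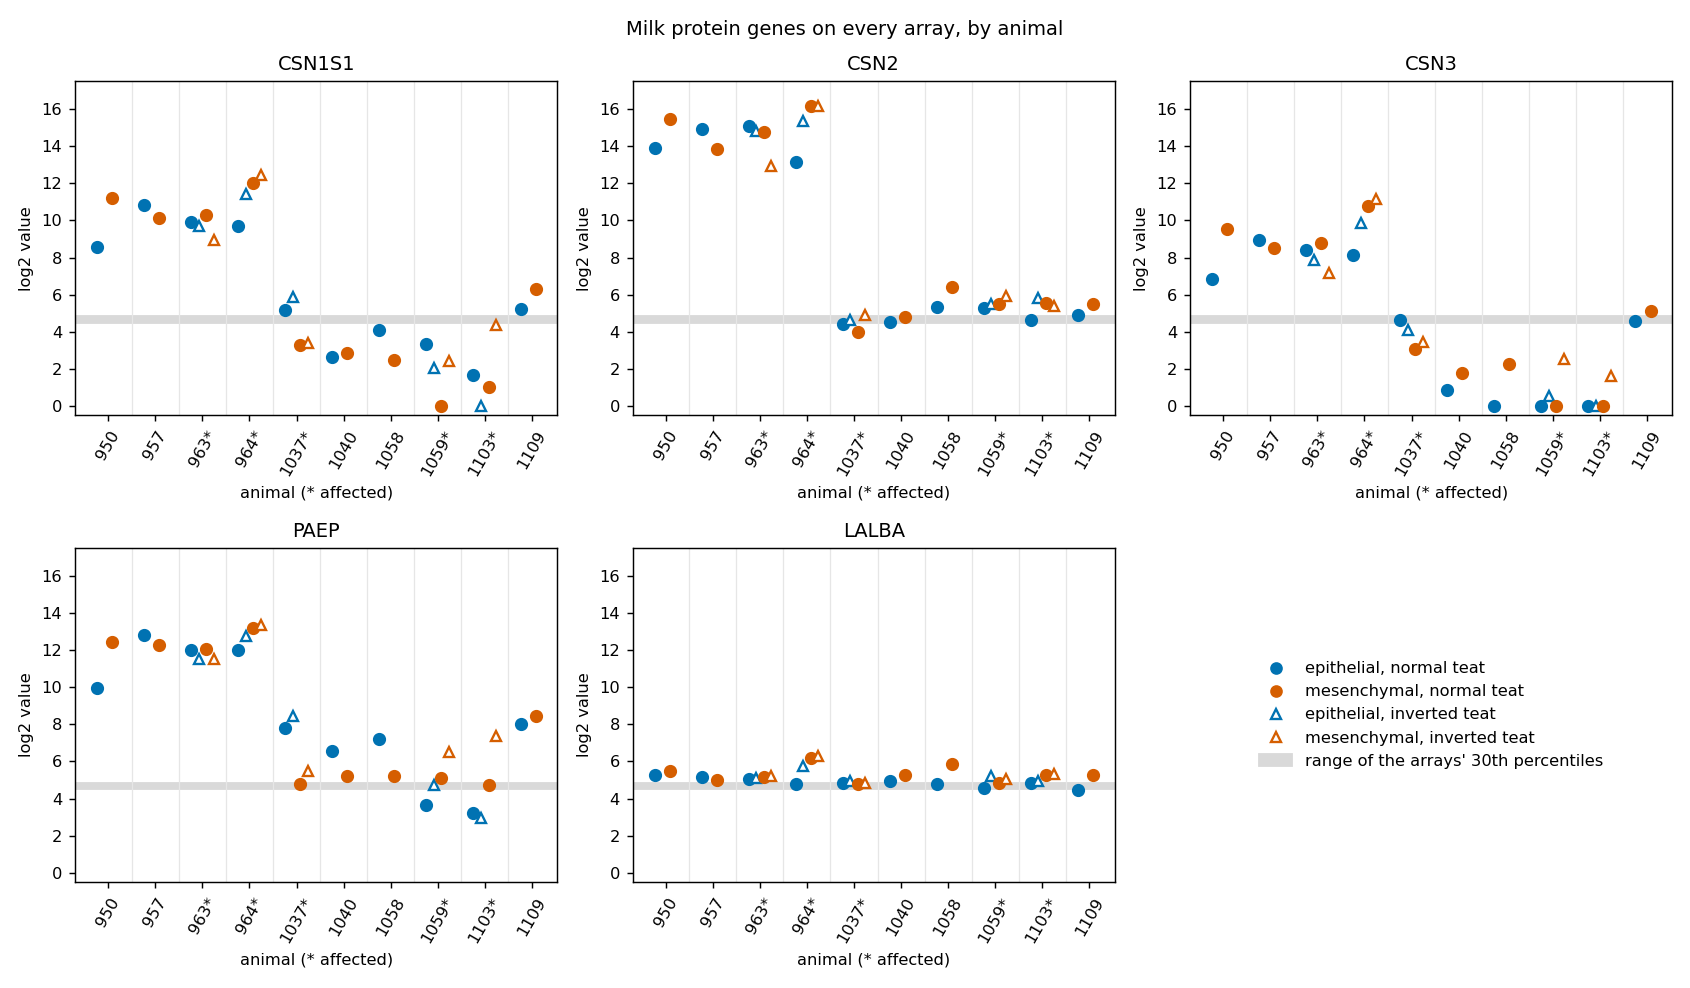
Log2 value of each milk protein gene (vertical axis) on each of the 30 arrays by animal (horizontal axis, in order of animal number, an asterisk marks affected animals), with colour for the tissue and an open triangle for an inverted teat; the grey band spans the arrays' 30th percentiles, 4.49 to 4.84. CSN2 lies at 12.94 to 16.17 in animals 950, 957, 963 and 964 and at 4.0 to 6.39 in the others, while LALBA stays between 4.49 and 6.27 throughout.

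LALBA, alpha-lactalbumin, did not share this spread. It was above its array's 30th percentile on 28 of 30 arrays, often by little. Over the 30 arrays it ran from 4.49 to 6.27, a range of 1.78 beside a median range of 1.97 over all probe sets, and 14280 probe sets had a larger SD than its 0.42. The SD over arrays was 3.97 for CSN1S1, 4.82 for CSN2, 3.81 for CSN3 and 3.46 for PAEP, and 18, 5, 21 and 33 probe sets of the array exceeded them. The highest LALBA values, 6.27 and 6.21, were in mesenchymal tissue of the inverted and normal teat of animal 964. The next were 5.84 in mesenchymal tissue of 1058 and 5.73 in epithelial tissue of the inverted teat of 964. The highest LALBA values outside animal 964 thus include an animal with CSN2 at 6.39 or below on both arrays.

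Most of the variation lay between animals. Of the sum of squares within a tissue, 98.2% lay between animals for CSN2, 95.8% for CSN3, 92.9% for CSN1S1, 90.6% for PAEP and 54.3% for LALBA. The median over all probe sets was 46.9%, and only 2 probe sets had a larger share than CSN2. All 5 genes were above the 30th percentile of their array on 13 arrays: the 12 arrays of animals 950, 957, 963 and 964, and the mesenchymal array of 1109. On 11 arrays 3 of the 5 genes were above it, on 1 array 4, on 3 arrays 2 and on 2 arrays 1. The 4 animals with high CSN2 were both German Landrace animals and 2 of the 6 Large White x German Landrace animals, and no Pietrain cross. They also carry the lowest 4 animal numbers; the labels do not say what the numbers stand for, and their part in the result was not tested.

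The order of an animal's arrays was compared between the genes. In animal 964 the order of the 4 arrays was the same for all 5 genes, from epithelial tissue of the normal teat up through epithelial tissue of the inverted teat and mesenchymal tissue of the normal teat to mesenchymal tissue of the inverted teat. In 950 all 5 genes were higher in mesenchymal tissue, and in 957 all 5 were higher in epithelial tissue. In 963 CSN1S1, CSN3 and PAEP had the same order of arrays, and CSN2 and LALBA each had another. Among the animals with low CSN2, all 5 genes were higher in mesenchymal tissue in 1109. In 1040 it was 4 of 5 and in 1058 3 of 5, and with 2 arrays at least 3 of 5 genes must share a direction. In 1040 and 1058, CSN1S1 and CSN3 lay below the 30th percentile on both arrays, so no direction is read from those pairs. Of the 4 arrays of 1037, CSN1S1 and PAEP had the same order. In 1059 and 1103, where CSN3 was tied at 0 on several arrays, no 2 of the other 4 genes shared an order. CSN1S1 lay below the 30th percentile on every array of 1059 and 1103 and on both mesenchymal arrays of 1037. Over all 30 arrays Pearson's r with CSN2 was 0.91 for CSN1S1, 0.90 for CSN3, 0.90 for PAEP and 0.54 for LALBA, and Spearman's rho was 0.69, 0.72, 0.73 and 0.63. These points come from 10 animals at separate levels, so the coefficients are a description.

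Set out by group, every group held both high and low animals for CSN1S1, CSN2, CSN3 and PAEP. The ranges within groups were wide beside the differences between group medians. CSN2 had its highest group median, 6.39 (4.79 to 15.47), in mesenchymal tissue of non-affected animals. Then came 5.95 (4.92 to 16.17) in mesenchymal and 5.82 (4.66 to 15.33) in epithelial tissue of inverted teats, 5.55 (4.0 to 16.14) in mesenchymal tissue of normal teats of affected animals, 5.33 (4.51 to 14.94) in epithelial tissue of non-affected and 5.30 (4.40 to 15.06) in that of normal teats of affected animals. CSN1S1 medians ran from 3.29 in mesenchymal tissue of normal teats of affected animals to 6.31 in that of non-affected animals. The same pair of groups had the lowest and highest medians of CSN3, 3.10 and 5.10. PAEP medians ran from 5.08 in mesenchymal tissue of normal teats of affected animals to 8.43 in epithelial tissue of inverted teats. For these 4 genes the ranges of all 6 groups overlapped, and no neighbours in the order differed by more than the spread of their animals. LALBA had a mean of 5.38 ± 0.30 (SD, n = 5) in mesenchymal tissue of non-affected animals, 5.34 ± 0.55 in that of inverted teats and 5.26 ± 0.57 in that of normal teats of affected animals. In epithelial tissue its means were 5.19 ± 0.32 in inverted teats, 4.93 ± 0.31 in non-affected animals and 4.82 ± 0.17 in normal teats of affected animals. All 3 mesenchymal means were above all 3 epithelial ones, and each neighbouring pair in this order differed by less than 1 SD of both groups.

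The tissue comparison asks which genes separate the dissected layers in normal teats, over 20 arrays of 10 animals. LALBA was higher in mesenchymal tissue, with a mean of 5.32 against 4.87. Both means lay under the lowest array median, 5.71, and the epithelial mean was close to the arrays' 30th percentiles, 4.49 to 4.84. The difference of epithelial minus mesenchymal was -0.45 ± 0.16 (SE; 95% interval -0.78 to -0.12, adjusted p = 0.035, limma), and mesenchymal was higher in 8 of 10 animals. The 4 other genes did not pass the test: CSN2 differed by -0.58 ± 2.09 (-4.94 to 3.78), CSN3 by -0.74 ± 1.64 (-4.17 to 2.68), CSN1S1 by 0.14 ± 1.67 (-3.34 to 3.62) and PAEP by -0.02 ± 1.48 (-3.09 to 3.05). Adjusted p from limma was 0.86, 0.76, 0.96 and 0.99. These intervals hold the spread between animals, since the fit has no animal term. With the animal as a fixed term (replicate block), which compares the tissues within each animal and was chosen after seeing the data, they were -1.27 to 0.10 for CSN2, -1.57 to 0.08 for CSN3, -0.96 to 1.24 for CSN1S1 and -1.04 to 1.0 for PAEP. Adjusted p was then 0.15, 0.13, 0.85 and 0.98 (limma), and LALBA kept its call (-0.77 to -0.12, adjusted p = 0.031). The intervals still hold differences of about 1 unit, so they do not show that the tissues are alike. The call of 1 of 5 genes stands beside 33.5% of 18286 probe sets called, of which 12.9% of all tested were higher on the epithelial side and 20.6% on the mesenchymal side. Muscle markers moved with the tissue too: the summed level of 8 skeletal muscle genes was 17.1 to 83.0 on epithelial and 23.4 to 104.8 on mesenchymal arrays of normal teats. Their part in the LALBA difference was not tested. With quantile normalisation the share of calls that were higher in epithelial tissue was 54.8% in place of 38.5%.

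The LALBA call depended on single animals. It was lost without animal 964 (-0.34, adjusted p = 0.058, limma), 1040 (-0.46, 0.059), 1058 (-0.38, 0.090), 1103 (-0.45, 0.067) or 1109 (-0.41, 0.081). The 2 largest single differences were in 964, at 4.77 and 6.21, and in 1058, at 4.79 and 5.84 for epithelial and mesenchymal tissue of the normal teat. The 2 animals with higher epithelial LALBA were 957 and 1037, with 5.17 against 5.03 and 4.83 against 4.80. For the other genes the direction varied by animal. Where at least 1 of the 2 arrays was above its 30th percentile, epithelial was higher in 2 of 6 animals for CSN1S1 (-2.68 to 1.87), 2 of 9 for CSN2 (-2.98 to 1.11), 2 of 6 for CSN3 (-2.66 to 1.52) and 4 of 10 for PAEP (-2.47 to 3.01). The other 4 animals for CSN1S1, 1 for CSN2 and 4 for CSN3 had both tissues below that percentile, 2 of them with CSN3 at 0 in both, and no direction is read from them.

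**Figure D2:**
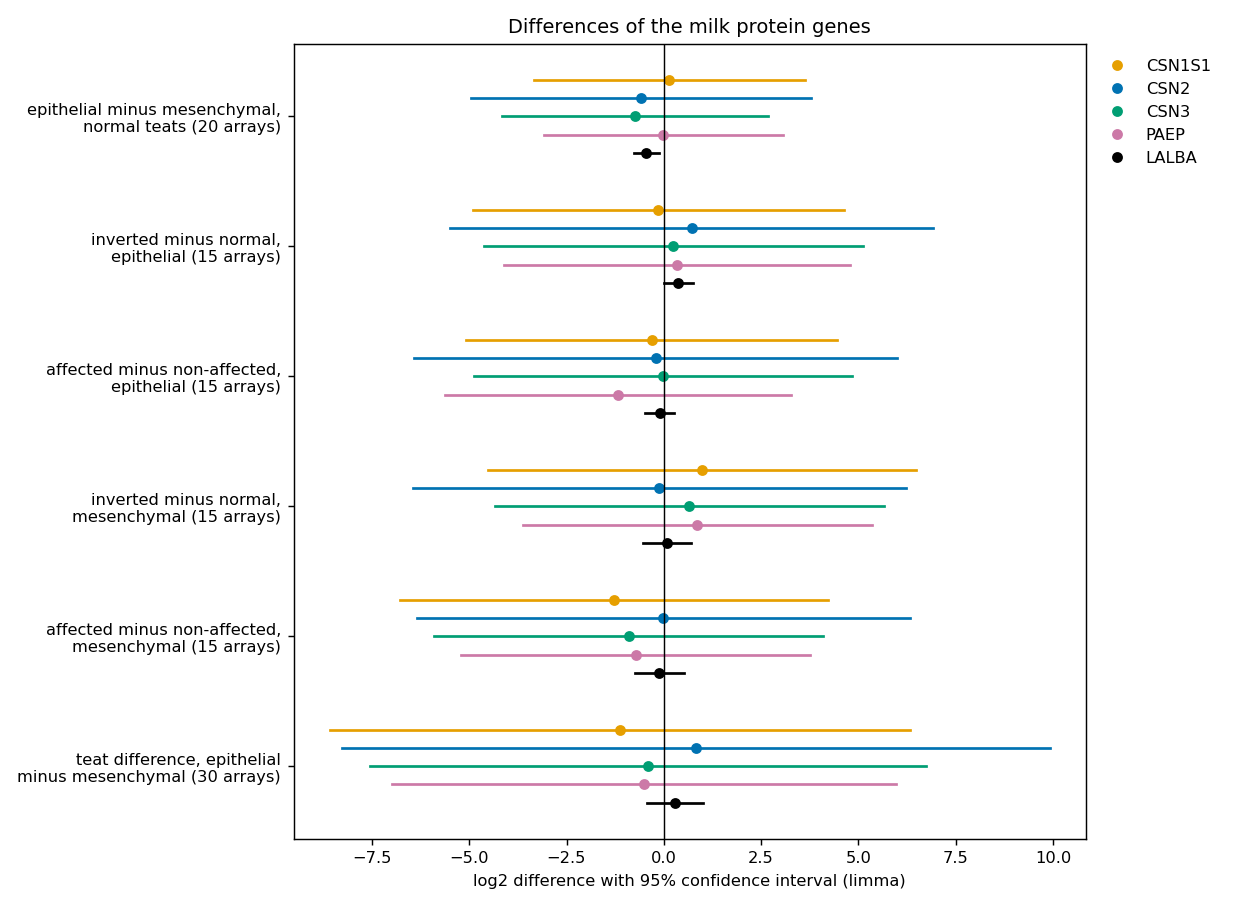
Log2 difference (horizontal axis) of each gene in each comparison (vertical axis), with 95% confidence intervals from limma without an animal term. The interval of LALBA between tissues, -0.78 to -0.12, lies below 0, and those of the other 4 genes are several units wide.

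The teat comparison asks whether an inverted teat differs from a normal teat of affected animals, and the status comparison whether normal teats differ with the status of the animal. In epithelial tissue the difference of inverted minus normal teat was 0.71 ± 2.92 for CSN2, 0.25 ± 2.29 for CSN3, 0.35 ± 2.09 for PAEP, 0.37 ± 0.18 for LALBA and -0.14 ± 2.24 for CSN1S1 (SE). None passed limma's test (adjusted p = 1.0), and 0% of 17661 probe sets were called. The 95% interval was -5.49 to 6.92 for CSN2 and -0.00068 to 0.75 for LALBA. Between affected and non-affected animals the differences in epithelial tissue were -0.31 ± 2.24 for CSN1S1, -0.21 ± 2.92 for CSN2, -0.02 ± 2.29 for CSN3, -1.17 ± 2.09 for PAEP and -0.11 ± 0.18 for LALBA. Adjusted p was again 1.0 and 0% were called. At an unadjusted p under 0.05 there were 303 probe sets for the teat and 420 for the status comparison, and 992 and 391 with the animal as a random block. With the animal as a fixed term the teat interval within animals was -0.08 to 1.51 for CSN2, -1.26 to 0.98 for CSN1S1, -0.52 to 1.02 for CSN3, -0.23 to 0.92 for PAEP and -0.0087 to 0.76 for LALBA, and none passed (adjusted p = 0.90 to 0.97, limma). Without animal 1103 the teat differences in epithelial tissue were 0.24 for CSN1S1, 0.59 for CSN2, 0.31 for CSN3, 0.50 for PAEP and 0.44 for LALBA, so that CSN1S1 changed sign and none passed the test. Without animal 964 CSN1S1 was -0.61, CSN2 0.35, CSN3 -0.13 and LALBA 0.23, and without 1059 PAEP was 0.16 and CSN1S1 0.14.

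In mesenchymal tissue the teat differences were 0.99 ± 2.58 for CSN1S1, -0.11 ± 2.97 for CSN2, 0.66 ± 2.35 for CSN3, 0.86 ± 2.11 for PAEP and 0.08 ± 0.29 for LALBA. The status differences were -1.28 ± 2.58, -0.01 ± 2.97, -0.90 ± 2.35, -0.73 ± 2.11 and -0.12 ± 0.29 in the same order. None passed limma's test in either comparison (adjusted p = 1.0), and 0% of 17839 probe sets were called; 78 and 201 had an unadjusted p under 0.05, and 535 and 159 with the random block. The interval for CSN2 was -6.44 to 6.21 between teats, and -0.93 to 0.70 with the animal as a fixed term, which gave -0.43 to 2.41 for CSN1S1, -0.54 to 1.85 for CSN3, -0.08 to 1.80 for PAEP and -0.21 to 0.37 for LALBA, with none past the test. Without animal 1103 the teat difference was 0.40 for CSN1S1, -0.11 for CSN2, 0.41 for CSN3, 0.43 for PAEP and 0.09 for LALBA. No teat difference passed the test of a difference between the tissues: epithelial minus mesenchymal was -1.13 ± 3.64 for CSN1S1, 0.83 ± 4.43 for CSN2, -0.41 ± 3.48 for CSN3, -0.52 ± 3.16 for PAEP and 0.29 ± 0.35 for LALBA, with adjusted p = 1.0 (limma) and 0% of 18783 called, beside 171 at an unadjusted p under 0.05. Without animal 1103 it was -0.16 for CSN1S1, 0.70 for CSN2, -0.10 for CSN3, 0.067 for PAEP and 0.35 for LALBA.

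Set against its own animal, an inverted teat had higher LALBA than the normal teat in 5 of 5 animals in both tissues. The median difference was 0.14 in epithelial tissue (0.04 to 0.96) and 0.06 in mesenchymal tissue (0.03 to 0.20). Of all probe sets tested, 3.42% in epithelial and 4.51% in mesenchymal arrays were higher in 5 of 5 animals. The median difference over all probe sets was 0.079 on mesenchymal arrays, above that of LALBA, and -0.0024 on epithelial arrays. In epithelial tissue inverted and normal teats overlapped, at 4.94 to 5.73 and 4.59 to 5.07. The lower of these values lie near the arrays' 30th percentiles, 4.49 to 4.84. The other genes differed in both directions. Where at least 1 of the 2 teats was above its array's 30th percentile, CSN2 was higher in the inverted teat in 3 of 4 animals in epithelial tissue (-0.26 to 2.17) and in 3 of 5 in mesenchymal tissue (-1.82 to 0.91). PAEP was higher in 3 of 4 (-0.48 to 1.11) and 4 of 5 (-0.56 to 2.60). CSN1S1 was higher in 2 of 3 (-0.21 to 1.73) and 1 of 2 (-1.33 to 0.39), and CSN3 in 1 of 3 (-0.55 to 1.74) and 1 of 2 (-1.61 to 0.35). The other pairs had both teats below that percentile, and no direction is read from them. Animal 963 had all 4 of these genes lower in its inverted teat in both tissues, and animal 964 had all 4 higher.

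**Figure D3:**
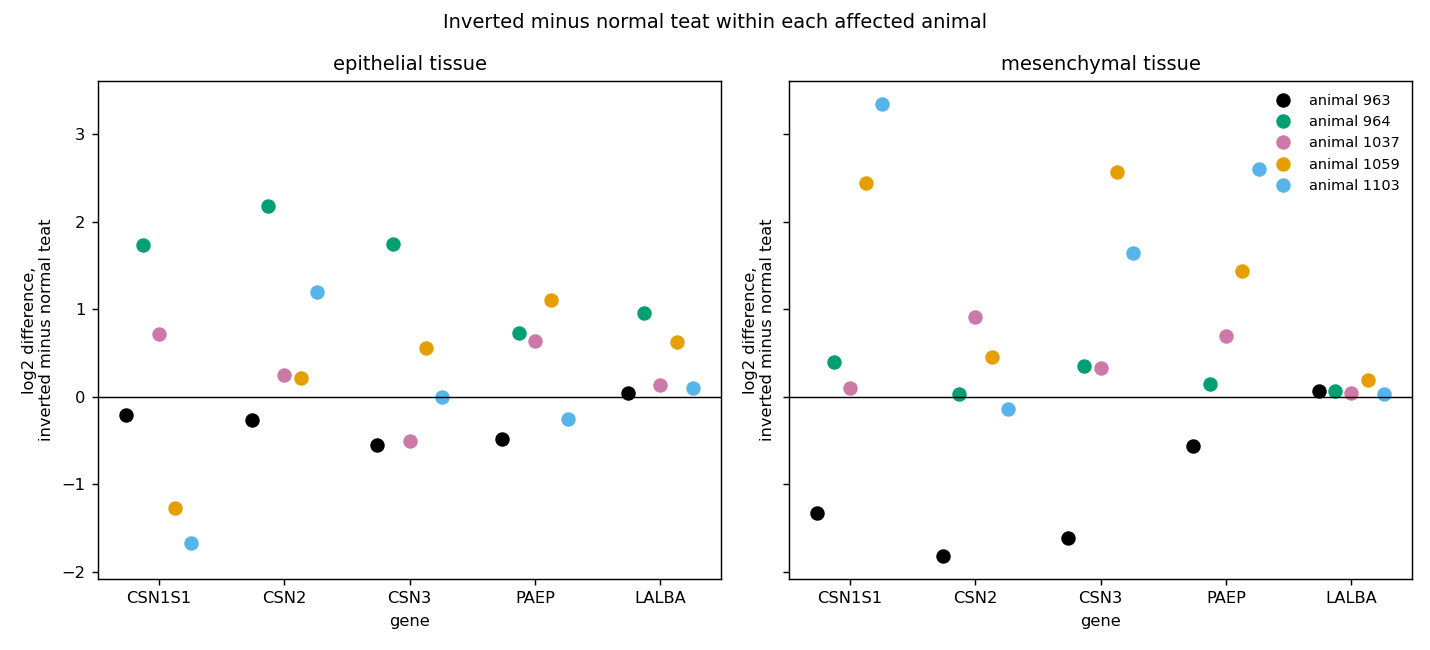
Log2 difference of inverted minus normal teat (vertical axis) for each gene (horizontal axis) in each of the 5 affected animals, in epithelial (left) and mesenchymal tissue (right). LALBA lies above 0 in all 5 animals in both tissues, at 0.04 to 0.96 and 0.03 to 0.20, and CSN2 runs from -0.26 to 2.17 and from -1.82 to 0.91.

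Of the 10 other milk protein genes with a probe set, some followed the pattern in part. CSN1S2, alpha-S2-casein, was 6.12 and 9.53 in epithelial and mesenchymal tissue of animal 950, 4.54 to 6.52 in 963 and 4.64 to 8.64 in 964. In 957, where CSN2 was 13.83 and 14.94, CSN1S2 was 3.93 to 4.50, within the 3.44 to 4.71 of the 6 animals with low CSN2. WAP, whey acidic protein, was 8.48 in mesenchymal tissue of 950 and 8.11 and 8.34 in that of 964, and 5.20 to 6.27 on all other arrays. These 3 WAP values fall on the arrays with the 3 highest CSN1S2 and CSN2 values. LTF, lactoferrin, an iron-binding defence protein of milk and other secretions, ran from 0 to 10.09. In mesenchymal tissue it was 6.57 to 8.41 on the 6 arrays with high CSN2, 7.01 in animal 1040 and 0 to 5.91 on the other 8 arrays. In epithelial tissue it was 8.09 to 10.09 on the 6 arrays with high CSN2 and 0.099 to 9.85 on the other 9, so the ranges overlapped. PIGR, an antibody receptor, was 5.63 to 6.78 on mesenchymal arrays with high CSN2 and 1.94 to 4.88 on the other mesenchymal arrays. Its epithelial ranges overlapped. LPO, SPP1, TF, MFGE8, MUC1 and FOLR1 did not follow CSN2, with overlapping ranges in both tissues. FOLR1 was lowest, 6.91, in animal 950 and highest, 11.15, in 1103.

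**Figure D4:**
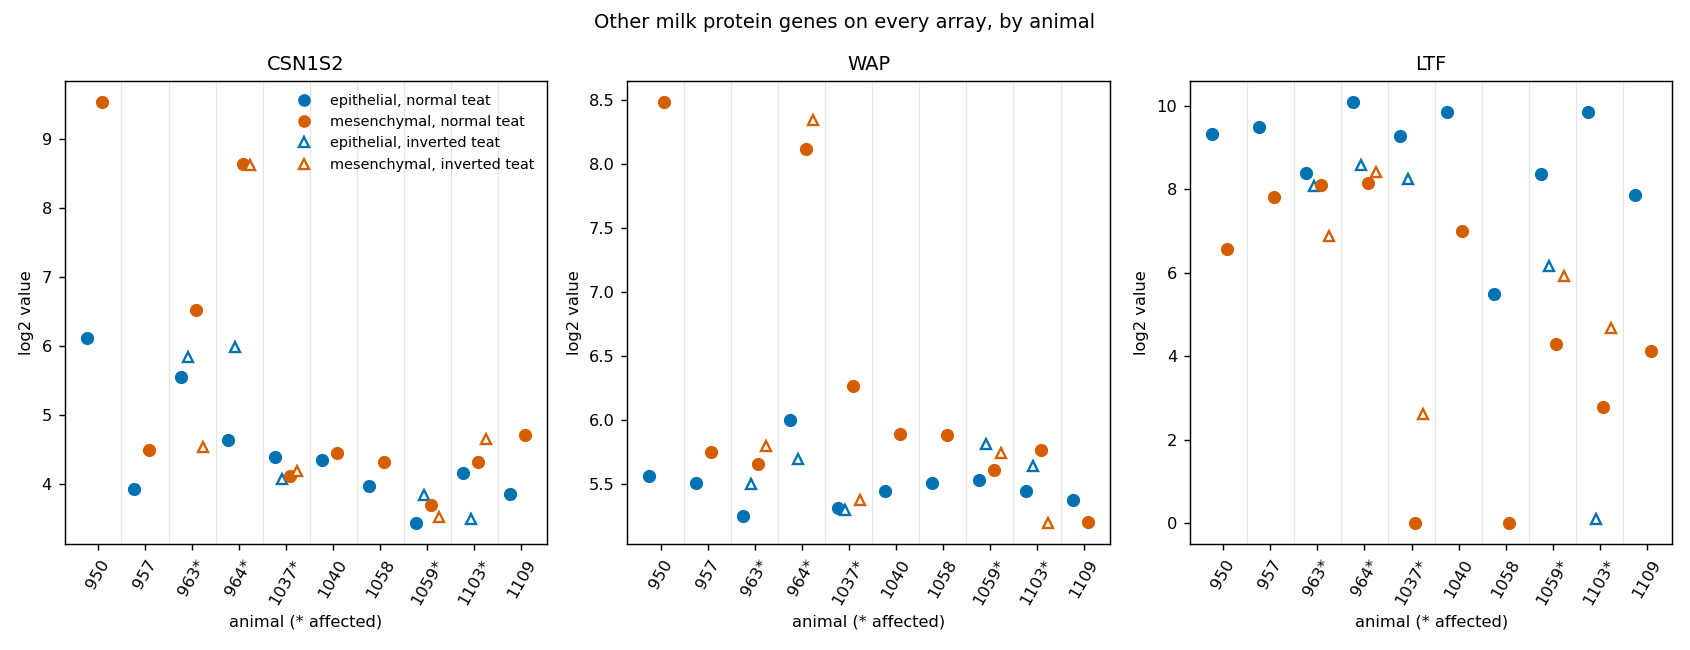
Log2 value of CSN1S2, WAP and LTF (vertical axes, each with its own range) on each array by animal (horizontal axis, an asterisk marks affected animals). WAP exceeds 8 on 3 mesenchymal arrays of animals 950 and 964, which also have the highest CSN1S2 values.

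Beside the members, other genes of milk production and of the tissue layers were counted in the tissue comparison, with 1 probe set for each gene. Of all probe sets tested, 12.9% were called higher in epithelial and 20.6% in mesenchymal tissue. Those shares stand beside the counts of this paragraph and the next. Of 9 tested genes among the other milk proteins, LTF (3.92 ± 1.02, adjusted p = 0.0068) and PIGR, the receptor that moves antibody across epithelium (1.76 ± 0.60, 0.029), were higher in epithelial tissue, and the median of the list was -0.32 beside -0.06 over all probe sets. Of 19 tested genes of prolactin and lactogenic signalling, 6 were higher in the epithelial and 5 in the mesenchymal layer, with a median of 0.06. JAK2, the kinase of the prolactin receptor (0.91 ± 0.21), and NFIB, a transcription factor (0.52 ± 0.13), were higher in epithelial tissue. GHR, the growth hormone receptor (-1.47 ± 0.21), and CEBPB, a transcription factor of mammary development (-1.22 ± 0.18), were higher in mesenchymal tissue. PRLR, the prolactin receptor, lay below the filter and was not tested; its group medians were 3.99, 4.24 and 3.98 in epithelial tissue of non-affected animals, of normal teats of affected animals and of inverted teats, and 3.03, 1.93 and 2.76 in mesenchymal tissue. STAT5A (-0.52 ± 0.13) and STAT5B (-0.93 ± 0.16), which carry the prolactin signal to the casein genes, were higher in mesenchymal tissue, and 1 of the other STAT5A probe sets gave 0.05. Of 19 genes of lactose and milk fat synthesis 14 were higher in mesenchymal tissue and none in epithelial tissue, with a median of -1.23. LPIN1, a phosphatidate phosphatase (-2.17 ± 0.27), and ACSL1, an acyl-CoA synthetase (-1.93 ± 0.25), had the smallest p. Much of this list is active in fat cells too, and the 6 adipocyte markers were all higher in mesenchymal tissue, with a median of -2.20. Their summed level in non-affected animals was 42.6 to 58.1 on epithelial arrays and 61.0 to 68.2 on mesenchymal arrays. In normal teats of affected animals it was 45.3 to 58.1 and 57.0 to 65.1, so the ranges overlapped there. The part of these markers in the result was not tested.

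Among the cell type lists, 9 of 12 luminal epithelial genes were higher in epithelial tissue and 1 in mesenchymal tissue, with a median of 1.87. ELF3, an epithelial transcription factor, differed by 1.45 ± 0.36 and CLDN3, a tight junction protein, by 1.97 ± 0.60, while PROM1 was higher in mesenchymal tissue (-1.0 ± 0.26). Other probe sets of ELF3 and CLDN3 gave 0.16 and -0.20. All 8 skeletal muscle genes were higher in mesenchymal tissue, with a median of -5.95, and 2 of 6 keratinocyte genes, DSP and PERP, were higher in epithelial tissue. Of 6 fibroblast genes 1 was higher in epithelial tissue, and none of 5 myoepithelial, 6 leukocyte or 6 endothelial genes passed the test. With quantile normalisation the calls on the epithelial and the mesenchymal side were 7 and 5 for lactogenic signalling, 0 and 13 for lactose and milk fat, 10 and 1 for luminal epithelium, 0 and 7 for muscle, 3 and 0 for fibroblasts and 1 and 0 for myoepithelium. No gene of these lists passed the test in a teat, status or interaction comparison.

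Luminal keratins did not separate the animals the way CSN2 did in epithelial tissue. The mean log2 level of KRT8, KRT18 and KRT19, keratins of luminal cells, was 9.27 to 10.66 on 14 of 15 epithelial arrays and 6.75 on the inverted teat array of animal 1103. Across those same epithelial arrays CSN2 was 4.40 to 5.82 in animals 1037, 1040, 1058, 1059, 1103 and 1109 and 13.16 to 15.33 in 950, 957, 963 and 964. In mesenchymal tissue the keratin mean was 9.15 in 950, 10.65 in 957, 10.39 and 10.61 in 963 and 10.52 and 11.14 in 964. It was 2.63 in 1058, 6.64 in 1109 and 7.28 in 1040, 4.46 and 5.19 in 1037, 2.38 and 8.76 in 1103 and 5.78 and 9.65 in 1059. Mesenchymal arrays with high CSN2 therefore carried luminal keratin at the level of epithelial tissue, and the inverted teat of 1059, at 9.65, had CSN2 at 5.95. PAEP in mesenchymal tissue was 6.52 and 7.34 on the inverted teat arrays of 1059 and 1103. It was 5.08 and 4.74 on their normal teat arrays, where the keratin mean was lower. In both tissues of 963, 964 and 1037, PAEP was also higher in the teat with the higher keratin mean. Epithelial tissue of 1059 had the reverse, with PAEP 3.63 at a keratin mean of 10.3 (normal) and 4.74 at 9.59 (inverted). That of the normal teat of 1103 had PAEP 3.24 at 10.25. Between animals, mesenchymal tissue of 1040 had PAEP 5.20 at 7.28 and that of 1109 had 8.42 at 6.64. A link between PAEP and the keratins was not tested.

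**Figure D5:**
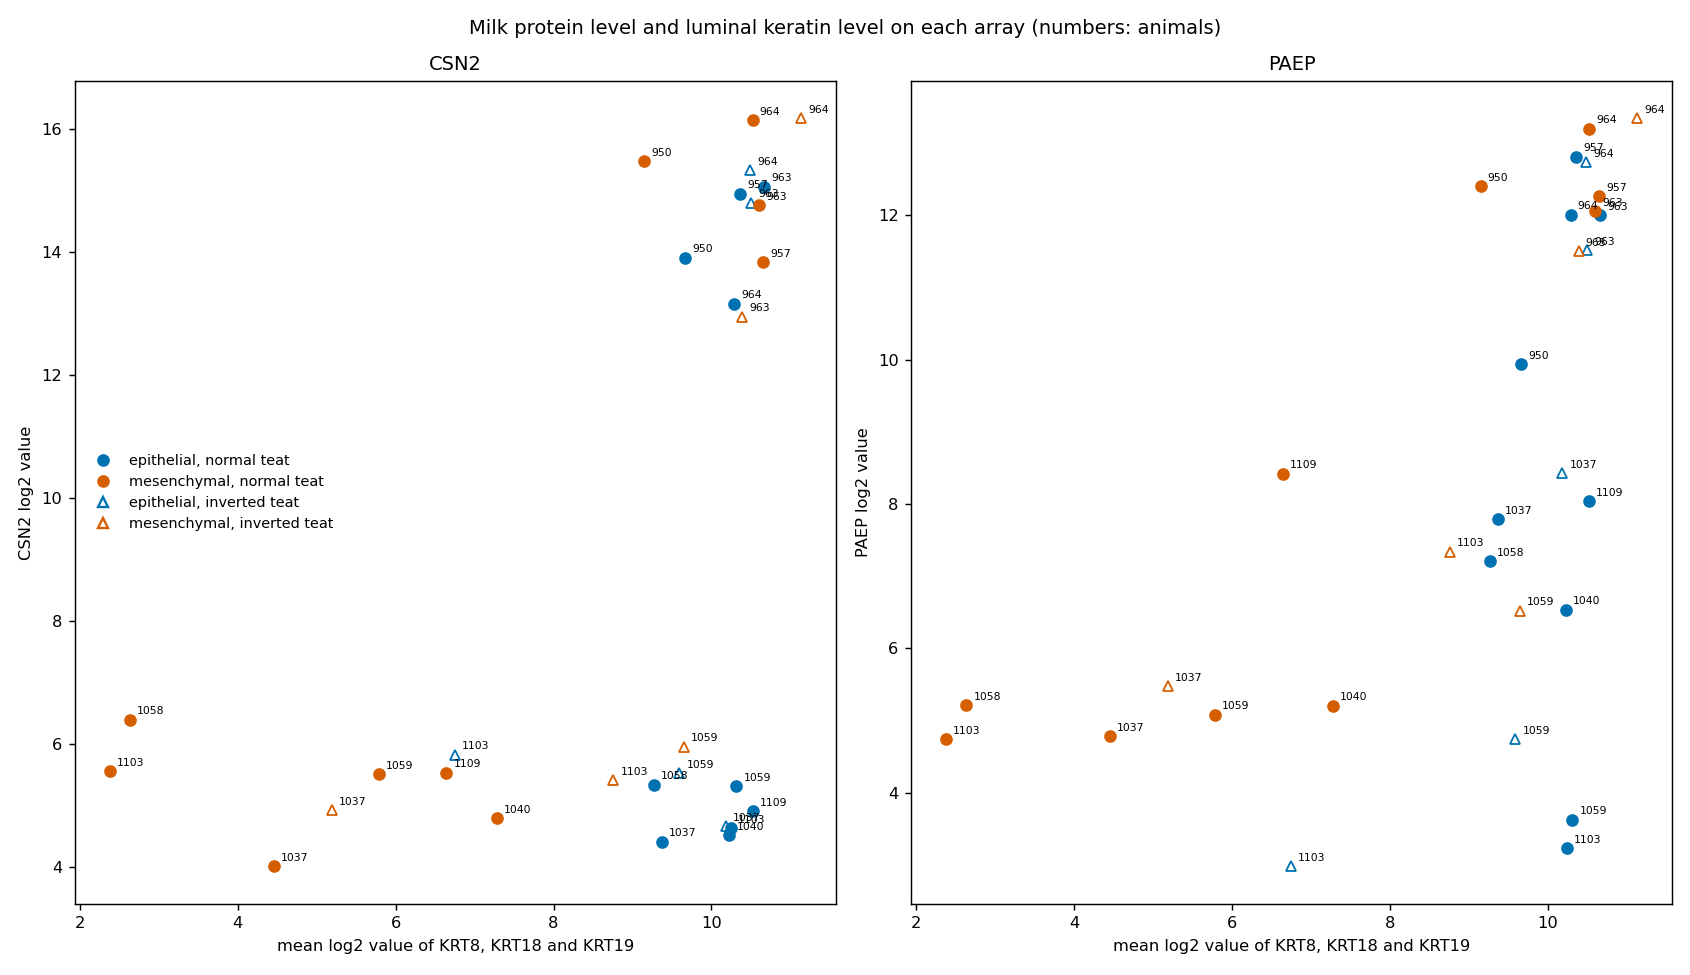
Log2 level of CSN2 (left) and PAEP (right) against the mean log2 level of KRT8, KRT18 and KRT19 on each of the 30 arrays, labelled by animal; colour gives the tissue and an open triangle an inverted teat. At a keratin mean of 9.15 or more, CSN2 is found both at 4.40 to 5.95 and at 12.94 to 16.17.

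The genes most like CSN2 over the 30 arrays were CSN1S1, CSN3 and PAEP, which had the 3 highest r of all probe sets. Among other probe sets with a single symbol the highest were RHOU (r = 0.81), a small GTPase, PELI1 (0.80), a ubiquitin ligase, SLC34A2 (0.80), a phosphate transporter, F2R (0.80), the thrombin receptor, and NCOA2 (0.79), a nuclear receptor coactivator. SLC34A2 was 4.56 to 6.13 in animal 950, 5.71 to 6.20 in 957, 5.51 to 6.50 in 963 and 4.87 to 7.62 in 964, and at most 4.92 in the others, with some arrays listed at 0. RHOU ran from 4.91 to 6.81 over all arrays, a small range beside that of CSN2. For LALBA, 945 probe sets had a higher r with CSN2.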

How the data were processed

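RNA of 30 teat tissue samples was hybridised to Affymetrix Porcine Genome arrays, with 500 ng of total RNA per labelling, per the labels' protocols. The authors deposited log2 probe set summaries for 24123 probe sets; the base was inferred from the range. Per the submitters' processing notes the tools were GCOS 1.1.1 and PLIER, without their roles, and normalisation between arrays is not given in the sources used here. Values were used as deposited, and depth is limited by the number of arrays. Names came from the platform table (10099 probe sets with 1 symbol, 198 with several, 13826 with none) and all 5 Entrez IDs matched RefSeq. The members, gene lists and tests were chosen with earlier results of these data known.

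Comparisons used limma 3.58.1 in R 4.3.3 (lmFit, eBayes), Benjamini-Hochberg adjustment over all probe sets tested and a threshold of 0.05. A probe set was tested if above its array's 30th percentile on at least 5 arrays of the fit, and 124 control probe sets were left out. The tissue comparison had status as a covariate. All 5 members were tested in every comparison. The 5 members were named in full, plus, for each list, up to 2 genes per direction with the smallest p past the threshold in the tissue comparison, and the 5 other genes with the highest r with CSN2. CSN1S2, WAP, LPO, SPP1, TF, MFGE8, MUC1, FOLR1, PRLR, STAT5A, STAT5B, KRT8, KRT18 and KRT19 were named after their values were seen. The fits were tested on simulated data without differences between animals, so that test does not cover the spread between animals seen here. Same-numbered arrays were taken to be from 1 animal, and the numbers pair them. After removal of group means the teats of an animal correlated with r of 0.15 to 0.29 (epithelial) and 0.080 to 0.42 (mesenchymal). No r between different animals is set beside these values, so they cannot show whether the pairing is right. Alternatives were the replicate block (as a random block, or as a fixed term, which for the tissue comparison was chosen after seeing the data), quantile normalisation, no filter, values under the 30th percentile raised to it, and each animal left out.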

Additional observations from a re-analysis of the deposited data

How the results depend on the processing

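With the animal as a replicate block (random), LALBA stayed higher in mesenchymal tissue (-0.45, adjusted p = 0.013, limma) and 8124 probe sets passed the tissue test in place of 6122. With it as a fixed term, an alternative chosen after seeing the data, LALBA had an adjusted p of 0.031 and 7805 passed; the block changed no other call of a member, and the teat and status counts stayed at 0. LALBA kept its call in 10 of 15 alternatives and its value ran from -0.51 to -0.34 with each animal left out. Of 435 values of the members under alternatives, 55 changed sign, all in differences that did not pass the test, and 5 lost the call. With quantile normalisation the values that turned were 0.10 for PAEP between tissues, 0.069 for CSN2 and 0.052 for CSN3 between statuses in epithelial tissue and 0.35 for CSN2 between statuses in mesenchymal tissue. With values under the 30th percentile raised to it they were -0.48 for CSN1S1 and 0.24 for PAEP between tissues; in epithelial tissue 0.44 for CSN1S1 between teats and 0.040 for CSN1S1 and 0.14 for CSN3 between statuses; in mesenchymal tissue -0.16 for CSN1S1 and -0.23 for CSN3 between teats and 0.12 for CSN2 and 0.20 for CSN3 between statuses; and 0.60 for CSN1S1 and 0.47 for CSN3 in the interaction. The cause was not tested. With each animal left out, tissue differences ran from -0.22 to 0.45 for CSN1S1 and from -0.35 to 0.26 for PAEP. Teat differences in epithelial tissue ran from -0.61 to 0.24 for CSN1S1 and from -0.13 to 0.45 for CSN3, that in mesenchymal tissue from -0.37 to 0.31 for CSN2, and the interaction from -0.79 to 0.067 for PAEP. Status differences in epithelial tissue ran from -1.31 to 0.83 for CSN1S1, from -1.85 to 1.35 for CSN2 and from -1.08 to 1.15 for CSN3. In mesenchymal tissue they ran from -2.95 to 0.054 for CSN1S1, from -1.75 to 1.56 for CSN2, from -2.46 to 0.23 for CSN3 and from -2.03 to 0.20 for PAEP, and the count of called probe sets from 0 to 1, with the 1 found without animal 957. SEs of the casein differences were 1.64 or more without an animal term and 0.32 to 0.61 with the animal as a fixed term.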
